A study of Mus musculus with 6 samples.

Results

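The thin filament is the actin-based part of the cardiac sarcomere, and its RNA was followed here in the right atrium (RA) of young mice after volume overload (VO). The 10 genes described are the cardiac and skeletal actins Actc1 and Acta1, the troponin subunits Tnnt2, Tnni1, Tnni3 and Tnnc1, the tropomyosins Tpm1 and Tpm2, and the pointed end proteins Lmod2 and Tmod1. They were taken by gene symbol from a table of 54093 genes, of which 12627 had a mean level of at least 1 FPKM and were tested, and all 10 were among those tested. No symbol of the 10 was repeated in the table. Between VO and sham RAs, the 10 fitted changes were all negative, with a median of -0.59 on the log2 scale, and none passed the threshold of 0.05 after adjustment over all tested genes.

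The samples were RAs of wild-type (WT) C57BL/6 mice collected at postnatal day 21 (P21), 3 libraries from sham-operated mice and 3 from mice with VO. Surgery was done at P7, and VO was created by an aortocaval fistula (ACF), a puncture between the abdominal aorta and the inferior vena cava that returns extra blood to the right heart, while sham mice had no fistula. The fistula loads the whole heart with blood, and the methods give pups of either sex with no statement on pooling of animals. The 6 libraries are called sham 1, 2 and 3 and VO 1, 2 and 3. Nothing says which libraries came from separate animals, so the p-values measure the spread between these libraries.

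The thin filament is a polymer of actin with tropomyosin lying along its groove and a troponin complex at regular steps. Calcium binds troponin C, troponin I lets go of actin, and troponin T passes the movement to tropomyosin, which uncovers the sites where myosin binds. Filament length is set at the pointed end, where tropomodulin caps the filament and leiomodin lets it grow. In the mouse heart the slow skeletal troponin I isoform (Tnni1) is replaced around birth by the cardiac isoform (Tnni3), and skeletal actin (Acta1) gives way to cardiac actin (Actc1), so both pairs are read as marks of cardiomyocyte maturation.

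Levels are given as FPKM, in which the fragment count of a gene is corrected for its length and for a library size. That size was not the fragment total on genes. It was 18144117 in VO 1, against 16852482 fragments, and 15557402 in sham 1, against 16494342 fragments. Fragments on genes ranged from 15963082 to 17237903 per library, and 1 FPKM equalled 15.6 to 18.1 fragments per kilobase of gene. Atrial markers prevailed, since the summed level of 7 atrial cardiomyocyte markers was 12297 to 18313 FPKM in sham and 5761 to 11635 FPKM in VO, against 121 to 308 and 92.7 to 143 FPKM for 4 ventricular markers. Of the ventricular markers, Myl2 ranged from 1.54 to 60.4 FPKM between libraries. A pair of VO libraries stood apart. VO 1 held 154 FPKM of 8 immune markers, against 46.7 in VO 2, 54.6 in VO 3 and 38.6 to 42.4 in sham. VO 3 held 528 FPKM of 5 adipocyte markers against 38.7 to 54.3 in the other 5 libraries. Ucp1 was at 254 FPKM in VO 3 and at 0 in the others. In whole tissue, fewer cells of a type and less RNA per cell cannot be told apart.

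Promoter windows of 4 members are shown, since the 2 actin isoforms share a motif while their levels lie thousands-fold apart, and Tnnt2 and Tnnc1 carry a motif found in 5 of the 10 genes. Each window is the 250 bases before the RefSeq gene start on GRCm38.p6, written 5′ to 3′ along the gene, with motif matches in capitals. Actc1 is at chr2:114052876-114053125 (minus strand), Acta1 at chr8:123894776-123895025 (minus), Tnnt2 at chr1:135836084-135836333 (plus) and Tnnc1 at chr14:31208062-31208311 (plus).
Actc1: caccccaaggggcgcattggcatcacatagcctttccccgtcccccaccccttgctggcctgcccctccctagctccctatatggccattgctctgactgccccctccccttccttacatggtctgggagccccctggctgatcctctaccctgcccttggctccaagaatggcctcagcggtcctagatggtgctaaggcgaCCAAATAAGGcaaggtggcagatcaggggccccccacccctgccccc
Acta1: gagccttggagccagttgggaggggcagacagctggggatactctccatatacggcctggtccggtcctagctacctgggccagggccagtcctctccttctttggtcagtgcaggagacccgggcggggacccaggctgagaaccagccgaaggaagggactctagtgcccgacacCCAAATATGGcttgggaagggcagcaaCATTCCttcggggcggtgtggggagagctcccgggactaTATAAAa
Tnnt2: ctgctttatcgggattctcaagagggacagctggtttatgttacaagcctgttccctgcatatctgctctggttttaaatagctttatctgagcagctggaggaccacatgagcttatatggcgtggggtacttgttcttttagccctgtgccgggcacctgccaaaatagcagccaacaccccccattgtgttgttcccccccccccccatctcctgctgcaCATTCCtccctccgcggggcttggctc
Tnnc1: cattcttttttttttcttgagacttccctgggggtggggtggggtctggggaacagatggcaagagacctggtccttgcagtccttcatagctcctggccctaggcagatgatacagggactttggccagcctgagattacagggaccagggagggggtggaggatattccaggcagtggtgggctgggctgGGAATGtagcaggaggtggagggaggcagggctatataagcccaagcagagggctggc
The capitals mark a CArG box, the binding motif of serum response factor, in Actc1 and Acta1. In Acta1 they also mark CATTCC, the M-CAT motif bound by TEAD factors, and TATAAA, and in Tnnt2 and Tnnc1 they mark CATTCC, which reads GGAATG where it lies on the other strand. The CArG box lay 47 to 38 bases before the RefSeq start in Actc1 and 73 to 64 bases before the RefSeq start in Acta1. The deposited gene starts differ from the RefSeq starts for Actc1, Acta1 and Tnnt2. By the deposited position of Actc1 (chr2:114047282-114053548, minus strand), its whole window and the CArG box lie inside the gene. Both strands were searched in 12 windows of the 10 genes and in 32851 promoter windows of the same length. CArG boxes were in 1.47% of all windows and in these 2 genes. CATTCC was in 12.6% of all windows and in Acta1, Tmod1, Tnnc1, Tnnt2 and Tpm1, and TATAAA was in 12.4% of all windows and in Acta1. MEF2 sites, in 2.92% of all windows, were in no window of the 10 genes. A CArG box or a MEF2 site can contain TATAAA, and in the members' windows no matches of different motifs overlapped. A match shows only that the letters are present.

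Cardiac actin was the most abundant member and the one with the smallest p-value. Actc1 (ENSMUSG00000068614, chr2:114047282-114053548, minus strand) was read at 5820, 5503 and 6446 FPKM in sham 1 to 3 and at 2645, 3776 and 3484 FPKM in VO 1 to 3. Every VO library lay below every sham library, with means of 5923 ± 480 (SD, n = 3) in sham and 3302 ± 587 in VO. The log2 fold change was -0.86 ± 0.22 (SE), which leaves 55.2% of the sham level, with an unadjusted p of 0.00629 and an adjusted p of 0.373 in limma. Actc1 alone took 0.888% to 1.01% of all gene fragments in sham and 0.461% to 0.624% in VO. An antisense gene, A530058N18Rik, covers the whole of Actc1 at 0.520 FPKM in sham and 0.224 FPKM in VO, and without strand information the reads of both cannot be separated.

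**Figure D1:**
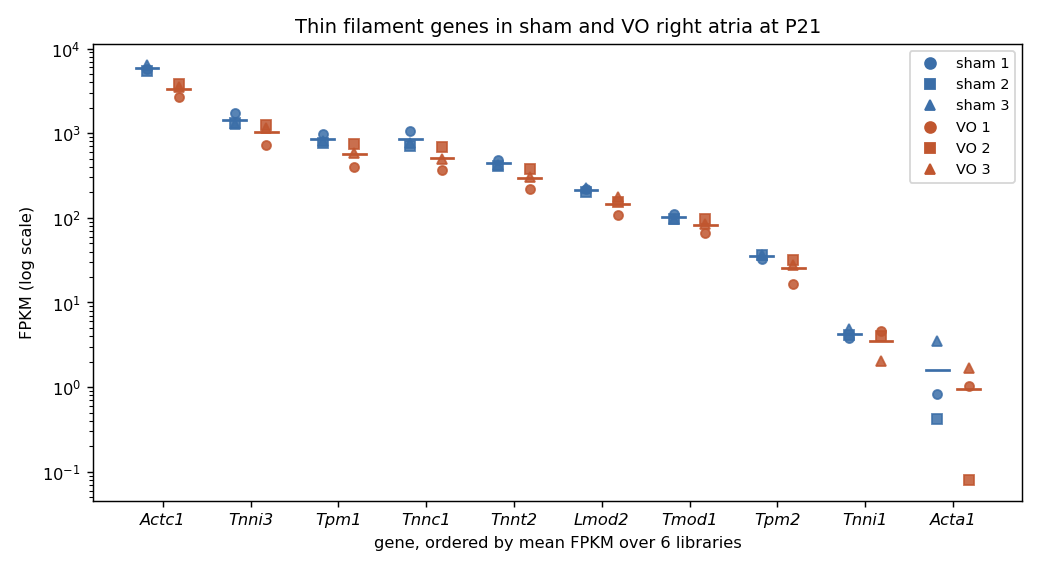
FPKM of the 10 thin filament genes on a log axis, with a point for each of the 6 libraries (circle, square and triangle for replicates 1, 2 and 3) and a bar at the mean of 3 libraries, sham in blue and VO in orange. Actc1 lies at 5503 to 6446 FPKM in sham and 2645 to 3776 in VO, while Acta1 does not exceed 3.48 FPKM and its points span both groups.

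Skeletal actin was near the limit of detection. Acta1 (ENSMUSG00000031972, chr8:123891769-123894751, minus strand) was read at 0.837, 0.415 and 3.48 FPKM in sham and at 1.04, 0.0799 and 1.70 FPKM in VO, from 20, 11 and 87 fragments in sham and 29, 2 and 43 in VO. The groups overlapped in part, with VO 2 below every sham library and sham 3 above every VO library. The log2 fold change was -0.74 ± 1.03 (SE), with an adjusted p of 0.742 in limma, and its 95% interval of -3.17 to 1.69 covers change in either direction. Acta1 made up 0.00755% to 0.0539% of the sum of both striated actins in sham and 0.00211% to 0.0488% in VO. The longest run of bases identical between Actc1 and Acta1 transcripts was 29, and assignment of reads between these close relatives was not tested further.

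The tropomyosins are coiled coils that lie along actin, and Tpm1 is the main one of the mouse heart. Tpm1 (ENSMUSG00000032366, chr9:67022590-67049406, minus strand) was read at 975, 773 and 807 FPKM in sham and at 397, 737 and 589 FPKM in VO. All 3 VO libraries lay below the sham libraries, although VO 2 lay close to sham 2. The log2 fold change was -0.61 ± 0.25 (SE), with an unadjusted p of 0.0423 and an adjusted p of 0.411 in limma. Tpm2 (ENSMUSG00000028464, chr4:43514711-43523765, minus strand), which encodes the beta chain, was read at 32.7, 36.9 and 36.9 FPKM in sham and at 16.7, 32.1 and 27.6 FPKM in VO. The groups again did not overlap, with a log2 fold change of -0.53 ± 0.23 (SE), an unadjusted p of 0.0588 and an adjusted p of 0.414 in limma.

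Of the troponin subunits, troponin T and troponin C had the lower p-values. Tnnt2 (ENSMUSG00000026414, chr1:135836354-135852260, plus strand), which anchors the complex to tropomyosin, was read at 485, 414 and 425 FPKM in sham and at 221, 375 and 304 FPKM in VO. No VO library reached the lowest sham library, and the log2 fold change was -0.59 ± 0.21 (SE), with an unadjusted p of 0.0255 and an adjusted p of 0.406 in limma. Tnnc1 (ENSMUSG00000091898, chr14:31208312-31211729, plus strand), the calcium sensor, was read at 1064, 710 and 764 FPKM in sham and at 364, 679 and 493 FPKM in VO. The highest level was in sham 1 and the groups did not overlap. The log2 fold change of Tnnc1 was -0.75 ± 0.27 (SE), with an unadjusted p of 0.0267 and an adjusted p of 0.407 in limma. Tnnc1 lies wholly within the span of Nisch on the opposite strand, which was read at 22.0 FPKM in sham and 24.4 FPKM in VO.

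The inhibitory subunit was almost all of the cardiac isoform. Tnni3 (ENSMUSG00000035458, chr7:4518305-4524229, minus strand) was read at 1736, 1325 and 1275 FPKM in sham and at 719, 1235 and 1140 FPKM in VO. The groups did not overlap, but VO 2 and VO 3 lay close under the lowest sham library. Its log2 fold change was -0.51 ± 0.25 (SE), with an unadjusted p of 0.0822 and an adjusted p of 0.432 in limma. Tnni1 (ENSMUSG00000026418, chr1:135779434-135810989, plus strand) was read at 3.84, 4.08 and 4.90 FPKM in sham and at 4.56, 4.02 and 2.06 FPKM in VO, from 122 to 298 fragments a library. VO 1 and VO 2 lay within the sham range and VO 3 below it. The log2 fold change of Tnni1 was -0.33 ± 0.29 (SE), with an adjusted p of 0.602 in limma.

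At the pointed end, Lmod2 and Tmod1 encode proteins with opposing roles in filament length. Lmod2 (ENSMUSG00000029683, chr6:24597762-24605414, plus strand) was read at 220, 201 and 227 FPKM in sham and at 109, 153 and 177 FPKM in VO. The groups did not overlap, and the log2 fold change was -0.59 ± 0.19 (SE), with an unadjusted p of 0.0174 and an adjusted p of 0.404 in limma. Tmod1 (ENSMUSG00000028328, chr4:46038935-46116032, plus strand) was read at 110, 96.3 and 97.7 FPKM in sham and at 66.3, 96.4 and 84.1 FPKM in VO. VO 2 lay just above sham 2, so the groups overlapped. The log2 fold change of Tmod1 was -0.32 ± 0.16 (SE), the smallest in size of the 10, with an unadjusted p of 0.0862 and an adjusted p of 0.437 in limma.

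**Figure D2:**
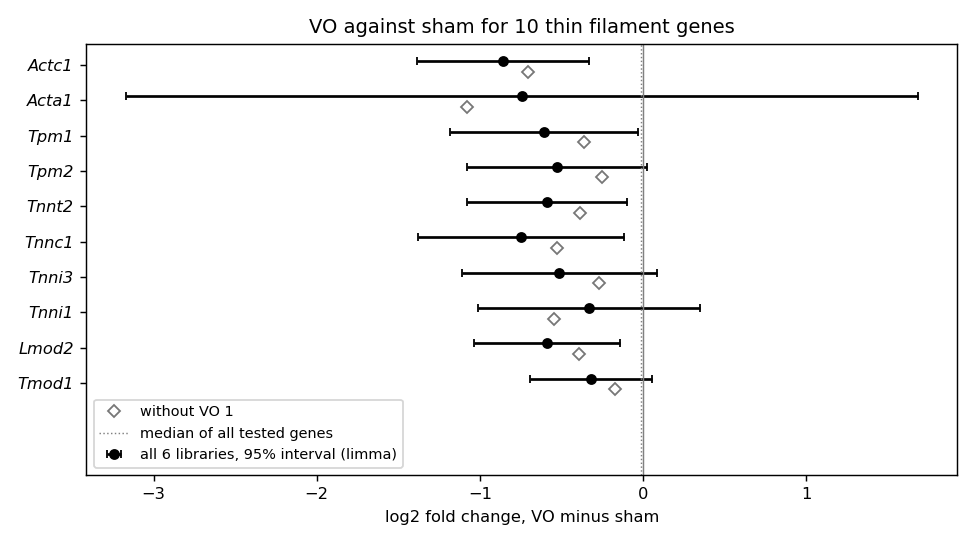
Log2 fold change (VO minus sham) of the 10 genes on log2(FPKM + 0.1), with filled points and 95% intervals from limma for 3 sham and 3 VO libraries and open diamonds for the fit without VO 1. The intervals of Actc1, Tnnc1, Tpm1, Tnnt2 and Lmod2 lie below 0, the other 5 include 0, and the dotted line is the median of all tested genes, -0.01.

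Of the 10 genes, 5 were lower in VO at an unadjusted p under 0.05 (Actc1, Lmod2, Tnnt2, Tnnc1 and Tpm1) and 0 were higher, where 8.08% of all tested genes were lower and 3.89% were higher by the same rule. After adjustment, 0 of the 10 were called, and over all tested genes 1 of 12627 was (0.00792%). The paper's own count test, at the same adjusted threshold, called many more genes. In 7 of the 10 every VO library lay below every sham library, against 12.9% of all tested genes, and the remaining 3 (Acta1, Tnni1 and Tmod1) overlapped. Over all tested genes the median log2 fold change was -0.01. Actc1 and Tnnt2 are among the genes that the study chose for PCR from its enrichment result on these samples, so their direction here is not independent evidence. The paper reports both as significantly lower in VO by qRT-PCR. Scaling as TPM moved the median of all genes to 0.13 and turned the split of all genes at an unadjusted p under 0.05 from 1020 lower and 491 higher to 486 lower and 1085 higher. Under TPM all 10 members stayed negative, with a median of -0.45, or -0.58 relative to the median of all genes. Quantile normalization gave a smaller median size, -0.32 over the 10. Actc1 was at -0.28 in place of -0.86, Tnnt2 at -0.33, Tnnc1 at -0.34, Tpm1 at -0.22 and Tnni3 at -0.19. Lmod2 was at -0.31, Tmod1 at -0.12 and Tpm2 at -0.41. Acta1 changed little, at -0.72, and Tnni1 was larger in size, at -0.35 in place of -0.33. By that scaling 0 of the 10 had an unadjusted p under 0.05 in limma, where 834 of 12627 tested genes were lower.

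The 8 members above 20 FPKM were alike in the order of the VO libraries and less so in that of the sham libraries. VO 1 was the lowest of the 6 libraries for all 8, and VO 2 the highest VO library for 7 of the 8, with Lmod2 as the exception. Sham 1 was the highest library for 5 of the 8, and sham 3 for Actc1, Tpm2 and Lmod2. The 10 genes together took 2.37%, 2.15% and 2.26% of gene fragments in sham 1 to 3 and 1.18%, 1.82% and 1.56% in VO 1 to 3. Without VO 1, the median log2 fold change of the 10 was -0.39 and 3 had an unadjusted p under 0.05 in limma (Actc1, Lmod2 and Tnnt2), where 4.92% of 12542 tested genes were lower by that rule. Without VO 3, the library with adipocyte markers, the median was -0.63 and the count 2, where 7.73% of all tested genes were lower by the rule. The count was also 2 without sham 1 (background 4.53%) or without sham 3 (6.68%), and it was 4 without sham 2 (6.09%) and 7 without VO 2 (9.57%). Actc1 was -0.70 without VO 1, with an unadjusted p of 0.00903 and an adjusted p of 0.581 in limma. Without sham 3, Acta1 fell under the level filter and 9 genes were tested.

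Isoform and subunit proportions were read as ratios within each library. For 8 pairs fixed for this purpose, the log2 ratio of FPKM was compared by an exact permutation test over the libraries, two-sided, which cannot go under a p of 0.1 with 3 against 3. All 8 overlapped between groups, with p-values adjusted over the 8 pairs of 0.6 to 0.9. The ratio of Tnni3 to Tnni1 was 452, 325 and 260 in sham 1 to 3 and 157, 307 and 553 in VO 1 to 3. VO 1 was the lowest of the 6 libraries and VO 3 the highest. The mean difference in log2 ratio was -0.17, with a 95% interval of -1.76 to 1.42 and an exact permutation p of 0.9, and it was 0.29 without VO 1 and -0.62 without VO 3. Tnni1 was 0.221%, 0.307% and 0.383% of the sum of both isoforms in sham and 0.631%, 0.325% and 0.180% in VO.

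The ratio of Actc1 to Acta1 was 6954, 13247 and 1853 in sham and 2542, 47282 and 2047 in VO. The value of VO 2 rests on 2 fragments of Acta1, with a 95% counting interval of 13089 to 390425. The mean difference in log2 ratio was 0.18, with an interval of -4.50 to 4.85 and an exact permutation p of 0.8, and it was -1.28 without VO 2. Counting intervals here cover counting error only. The ratio of Tpm1 to Tpm2 was steadier, at 29.8, 20.97 and 21.9 in sham and 23.7, 23.0 and 21.3 in VO, with a difference of -0.08 (interval -0.54 to 0.38, exact permutation p of 0.9). Tpm2 was 3.24% to 4.55% of the sum of both genes in sham and 4.04% to 4.48% in VO.

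Within the troponin complex, both subunit ratios overlapped between groups. The ratio of Tnni3 to Tnnt2 was 3.58, 3.20 and 2.999 in sham and 3.26, 3.30 and 3.75 in VO, a difference of 0.08 in log2 (interval -0.20 to 0.35, exact permutation p of 0.4). The ratio of Tnnc1 to Tnnt2 was 2.19, 1.72 and 1.80 in sham and 1.65, 1.81 and 1.62 in VO, a difference of -0.16 (interval -0.49 to 0.17, exact permutation p of 0.3). These ratios are of RNA per length over all exons of a gene, and Tnnt2 has the longest exon model of the 10, so they are not subunit stoichiometry. The remaining pairs differed by 0.45 for Tnnt2 to Tnnt1 (interval -0.09 to 0.98, exact permutation p of 0.2), by -0.25 for Actc1 to Tpm1 (interval -0.70 to 0.21, p of 0.2) and by -0.27 for Lmod2 to Tmod1 (interval -0.67 to 0.13, p of 0.3).

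**Figure D3:**
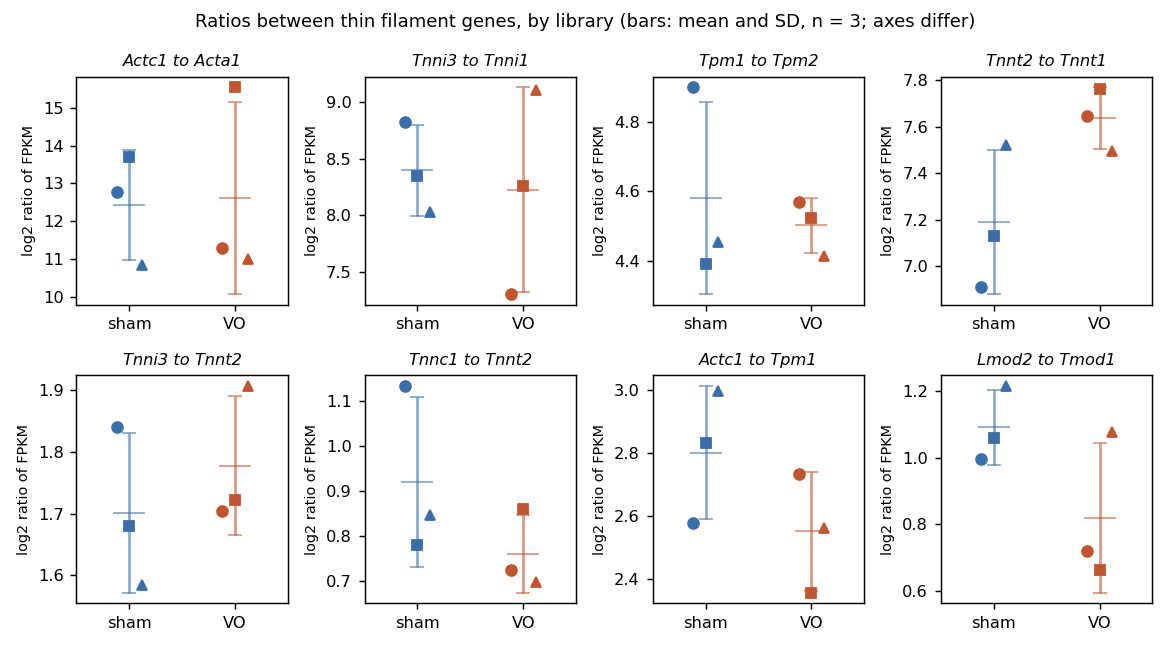
Log2 ratio of FPKM for 8 pairs of thin filament genes, with a point for each library (circle, square and triangle for replicates 1, 2 and 3) and bars at the mean and SD of 3 libraries, sham in blue and VO in orange; each panel has its own axis. In every pair the groups overlap, and Tnni3 to Tnni1 spans 157 to 553 among the VO libraries alone.

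Markers of cardiomyocytes outside the thin filament were read from a general and an atrial list. Of 12 general cardiomyocyte genes, among them Ryr2, Atp2a2 and Casq2 of calcium handling, 10 had a negative log2 fold change. At an unadjusted p under 0.05 in limma, 3 of the 12 (Slc8a1, Casq2 and Ldb3) were lower, where 8.08% of all tested genes were lower. Slc8a1 is also among the genes that the study chose for PCR on these samples. The median of the 12 was -0.26, which was -0.18 without VO 1, and 0 passed after adjustment. Pln and Cacna1c were the 2 with a positive value, at 0.12 and 0.02. The 7 atrial markers had a median of -0.47. Nppa was at -1.002, Myl4 at -0.90, Myl7 at -0.81, Bmp10 at -0.47, Sln at -0.40, Tbx5 at -0.24 and Kcnj3 at 0.12. The groups overlapped for Nppa, Sln, Tbx5 and Kcnj3. Of the 7, 3 (Myl4, Myl7 and Bmp10) were lower at an unadjusted p under 0.05 in limma, against the same 8.08% of all tested genes. Without VO 1 the atrial median was -0.42, beside -0.39 for the 10 members, so the levels were lower in these lists too and no difference in size between lists was tested. The summed level of the 12 general genes was 5230 to 5873 FPKM in sham and 3612 to 4981 FPKM in VO, without overlap. Averaged after centring each gene, the 8 abundant members were at 0.30 ± 0.11 (SD, n = 3) in sham and -0.30 ± 0.38 in VO, while the 12 cardiomyocyte genes were at 0.13 ± 0.02 and -0.13 ± 0.15. The thin filament average relative to the cardiomyocyte average was 0.31, 0.08 and 0.11 in sham 1 to 3 and -0.42, 0.01 and -0.08 in VO 1 to 3, a difference of -0.33. No VO library reached the lowest sham library by this measure, and the margin between VO 2 and sham 2 was narrow. The part of the cardiomyocyte share in the members' values was not tested.

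**Figure D4:**
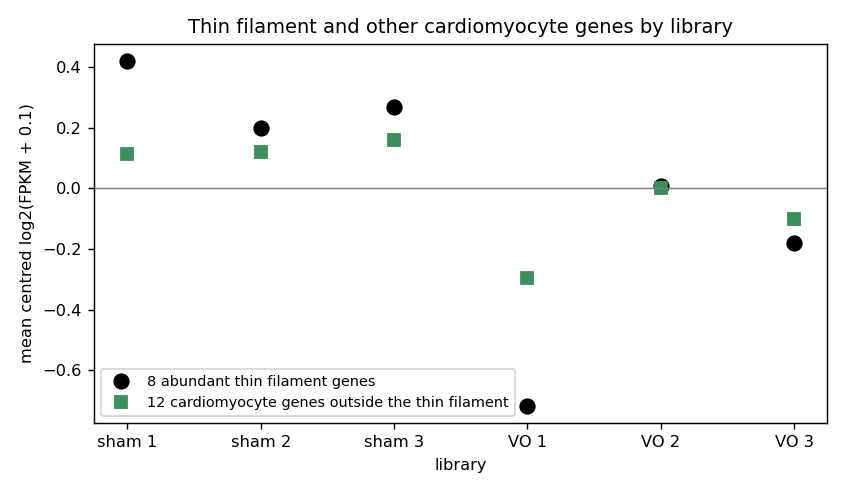
Mean over genes of log2(FPKM + 0.1), each gene centred on its mean over the 6 libraries, for the 8 thin filament genes above 20 FPKM (circles) and 12 other cardiomyocyte genes (squares). Both sets are lowest in VO 1, at -0.72 and -0.30, and in VO 2 both lie near 0.

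Markers of other cell types were summed for each library. The 8 fibroblast markers summed to 886 to 929 FPKM in sham and 929 to 1384 FPKM in VO. Of the 8, 2 (Col1a2 and Col3a1) were higher at an unadjusted p under 0.05 in limma, against 3.89% of all tested genes. Dcn and Pdgfra had log2 fold changes of -0.03 and -0.01. The 6 smooth muscle markers summed to 412 to 485 FPKM in sham and 195 to 343 FPKM in VO, nearly all of it Des and Acta2, which cardiomyocytes also make, while Myh11 and Smtn had log2 fold changes of 0.01 and -0.18. The 6 endothelial markers summed to 242 to 266 FPKM in sham and 235 to 259 FPKM in VO, so the groups overlapped. The 8 immune markers summed to 38.6 to 42.4 FPKM in sham and 46.7 to 154 FPKM in VO, without overlap. Of the 5 immune markers tested, 1 (Cd68) was higher at an unadjusted p under 0.05 in limma, against 3.89% of all tested genes. The list of 14 skeletal muscle genes summed to 311 to 436 FPKM in sham and 152 to 264 FPKM in VO, nearly all of it Ckm and Myl1, while Myh1, Myod1, Myog and Pax7 were at 0 in all 6 libraries and Myh4 did not exceed 0.0107 FPKM. The part of these levels in the members' values was not tested.

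The partners of the thin filament were read from 5 lists of 46 genes, of which 43 were tested. At an unadjusted p under 0.05 in limma, 16 of the 43 were lower in VO and 0 higher, against 8.08% and 3.89% of all tested genes, and 0 passed after adjustment. The median log2 fold change over the 43 was -0.10. The count of lower genes was 13 without VO 1 and 14 without VO 3, where 4.92% and 7.73% of all tested genes were lower by that rule. Without VO 2, 22 genes of these lists passed in either direction, and Tpm3, Actb, Actg1, Tmod3 and Twf1 among them were higher. In that fit 1209 of 12630 tested genes were lower and 792 higher. Tmod2 was higher by the rule without sham 3. Tnnt1, Srf and Nkx2-5 of these lists were chosen for PCR by the study on these samples. The paper reports each as significantly lower in VO by qRT-PCR.

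Among the other striated isoforms, 3 of 6 tested were lower at an unadjusted p under 0.05 in limma, against 8.08% of all tested genes. The list median was -0.51. Tnni2, the fast skeletal troponin I, was read at 2.66, 2.25 and 2.42 FPKM in sham and at 0.626, 1.07 and 0.569 FPKM in VO. These levels rest on 62, 58 and 59 fragments in sham and 17, 26 and 14 in VO. The groups did not overlap. The log2 fold change of Tnni2 was -1.62 ± 0.27 (SE), with an unadjusted p of 0.000544 and an adjusted p of 0.283 in limma. Tnnt1, the slow skeletal troponin T, was read at 4.02, 2.95 and 2.31 FPKM in sham and at 1.10, 1.73 and 1.68 FPKM in VO. It rests on 44 to 138 fragments a library. Its log2 fold change was -0.99 ± 0.26 (SE), with an adjusted p of 0.373 in limma. Tpm4, a tropomyosin of many cell types and the most abundant of the list, was at 82.0 ± 1.69 FPKM (SD, n = 3) in sham and 87.6 ± 9.34 FPKM in VO.

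The other actins differed in direction. Acta2, the smooth muscle actin that immature cardiomyocytes also make, was read at 154, 136 and 201 FPKM in sham and at 54.1, 98.7 and 98.9 FPKM in VO. Its groups did not overlap, with a log2 fold change of -0.999 ± 0.27 (SE), an unadjusted p of 0.00733 and an adjusted p of 0.373 in limma, and it was -0.71 without VO 1. Actb, the cytoplasmic beta actin, was read at 115, 135 and 109 FPKM in sham and at 182, 119 and 168 FPKM in VO, and its log2 fold change was 0.37 ± 0.19 (SE) and an adjusted p of 0.438 in limma. VO 2 lay within the sham range for Actb. At the pointed end, Tmod2 and Tmod3 had log2 fold changes of 0.32 ± 0.15 and 0.23 ± 0.12 (SE), with adjusted p-values of 0.424 and 0.432 in limma. Every VO library lay above every sham library in both, as in 8.25% of all tested genes.

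Of 19 tested genes for the barbed end, actin turnover and anchoring, 10 were lower at an unadjusted p under 0.05 in limma and 0 higher. Of all tested genes, 8.08% were lower and 3.89% higher by that rule. The list median was -0.36. Synpo2l, a protein of the Z-disc, was read at 69.1, 100 and 82.0 FPKM in sham and at 49.9, 54.2 and 48.6 FPKM in VO, and its log2 fold change was -0.70 ± 0.15 (SE) and an adjusted p of 0.325 in limma. Nrap, a scaffold of myofibril assembly, was read at 30.9, 33.7 and 36.9 FPKM in sham and at 18.1, 22.4 and 23.3 FPKM in VO, and its log2 fold change was -0.67 ± 0.13 (SE) and an adjusted p of 0.314 in limma. The groups did not overlap in either gene. Dstn, an actin-severing protein and the most abundant of the list, had a log2 fold change of -0.20 ± 0.13 (SE) and overlapped between groups.

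Of 11 transcriptional regulators, 2 were lower at an unadjusted p under 0.05 in limma, against 8.08% of all tested genes. The list median was -0.06. Srf, which encodes the factor that binds CArG boxes, was read at 42.4, 55.4 and 52.9 FPKM in sham and at 32.0, 36.6 and 32.3 FPKM in VO, and its log2 fold change was -0.57 ± 0.13 (SE), an unadjusted p of 0.00369 and an adjusted p of 0.344 in limma. Nkx2-5, a cardiac homeobox factor and the most abundant of the list, was at 69.2 ± 6.71 FPKM (SD, n = 3) in sham and 50.4 ± 6.33 FPKM in VO, and its log2 fold change was -0.46 ± 0.14 (SE) and an adjusted p of 0.404 in limma. The groups did not overlap in either gene.

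**Figure D5:**
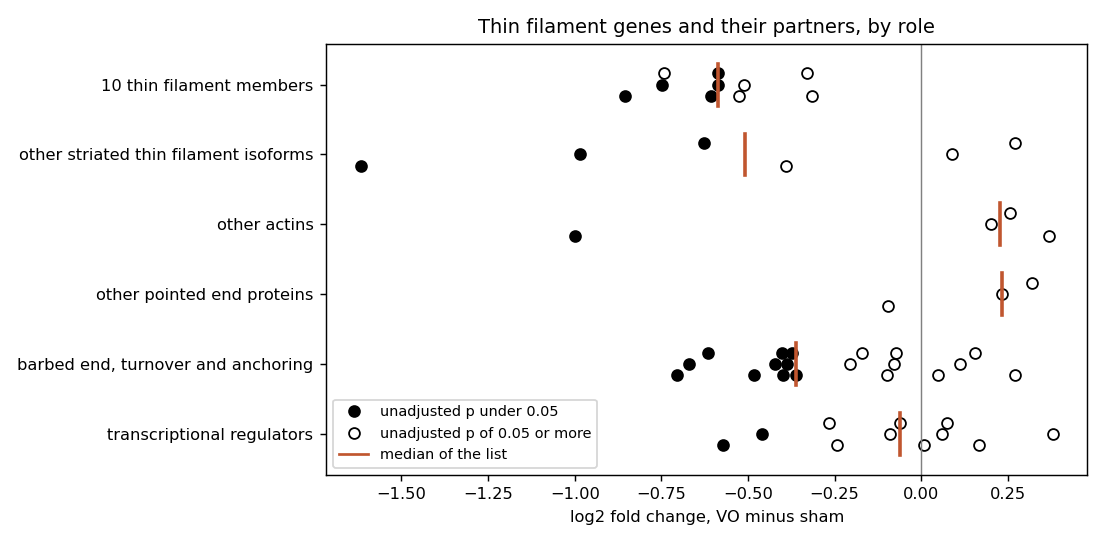
Log2 fold change (VO minus sham, limma) of the 10 thin filament genes and of 43 partner genes by role, with a point for each gene, filled where the unadjusted p was under 0.05, and a bar at the list median. Filled points lie left of 0 in every list that has any, and the medians run from -0.59 for the 10 members to 0.23 for the other actins and the other pointed end proteins.

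By Euclidean distance between centred log2 values over the 6 libraries, the non-member genes nearest to the mean profile of the 10 were D830039M14Rik at 0.0841, Yipf7 at 0.134, Pdlim5 at 0.177, Klhl31 at 0.186 and Chchd4 at 0.211. The members themselves lay 0.260 (Lmod2) to 3.11 (Acta1) from that profile, so the scatter of Acta1 enters it. Pdlim5, a Z-disc protein, was read at 70.5, 64.2 and 79.5 FPKM in sham and at 41.9, 46.8 and 48.1 FPKM in VO. D830039M14Rik rests on 46 to 88 fragments a library.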

How the data were processed

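RA total RNA was sequenced in 6 libraries as paired-end reads. Per the labels, the authors aligned reads to GRCm38 (mm10) with HISAT2 2.0.5 and counted with featureCounts 1.5.0-p3, and they deposited FPKM. The deposited FPKM were turned back into fragments, and 100% came out whole within 0.01. The library totals were 15963082 to 17237903 fragments. The file ended in 1 incomplete line, which was left out.

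Scaling by median of ratios gave a factor of 1.00 in each library, so it left the deposited FPKM as they were. FPKM were filtered to a mean of at least 1 and transformed as log2(FPKM + 0.1), which understates the change of low genes. They were fitted with limma 3.58.1 (trend) in R 4.3.3, VO against sham and two-sided, and p-values were adjusted by Benjamini-Hochberg across the 12627 genes. Ratios were tested by exact permutation, and their 95% intervals use the pooled SD. Steps were tested on simulated data. Gene positions are those in the deposited table, which matched GENCODE M21 for 98.4% of 54059 genes, among them all 10 members. Promoters are from RefSeq (GRCm38.p6), whose gene starts can differ from the deposited positions. The members and lists were chosen with earlier results of these data known. Text names all 10 members, per partner list the 2 smallest p-values and the highest level, and the 5 nearest profiles. The alternatives were pseudocounts, filters, scalings, voom on the fragments, the replicate block and leave-outs. The authors' own count test was not repeated.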

Additional observations from a re-analysis of the deposited data

How the results depend on the processing

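Across 137 alternative values of the 10 members' log2 fold changes, 135 kept direction and side of the threshold, and adjusted p ranged from 0.249 to 0.978. The exceptions were Acta1 (0.26 without VO 2) and Tnni1 (0.012 without VO 3). The adjusted count of members was 0 under every alternative. The count of members at an unadjusted p under 0.05, 5 of 10, was 2 to 7 with a library left out. With no filter it was 2, where 1221 of 26706 tested genes were lower by that rule. With quantile normalization it was 0, where 834 of 12627 were lower, and with voom 6, where 1070 of 12627 were. With the replicate block it was 3, where 608 of 12627 were lower. Over all tested genes that block took the count in either direction from 1511 to 932. That count was 853 to 2001 with a library left out. Same-numbered libraries correlated by -0.108, 0.0112 and -0.0292 after removal of group means. These values cannot settle whether the numbers mark pairs, and no label states a pairing, so the main fit used none.

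Ratio differences changed sign for Actc1 to Acta1 (-0.53 with a pseudocount of 1, and -1.28 to 0.98 with a library left out, -0.62 without sham 3), Tnni3 to Tnni1 (-0.62 to 0.29, and 0.04 without sham 1) and Tpm1 to Tpm2 (-0.17 to 0.080). The cause was not tested. Leaving out a library put Acta1 at -1.41 to 0.26 and Tnni1 at -0.54 to 0.012. With 3 libraries a group, the low counts of Acta1 limit any reading of its change.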
